A study of Mus musculus with 6 samples.

Results

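The proliferin genes Prl2c2 and Prl2c3 were followed across 6 RNA-seq libraries of mouse cells. The labels name the cells as HL-1, which is a cultured line derived from the atrial heart muscle of a mouse. Both genes were taken by symbol from a table of 21959 genes, so 2 of 21959 genes are described, and the counts of the 2 copies were also summed because their transcripts are nearly the same. They had been picked for their difference between the treatment groups of these libraries, so their fold changes and library values are given as a description, with no test. By the labels, all cells were wild type, grew in medium with 10% serum and carried a single batch label. All underwent oxygen-glucose deprivation and reoxygenation (OGD/R), which models in culture what heart muscle meets when its blood supply stops and returns. OGD/R was 4 h of hypoxia without glucose and then 24 h with oxygen and complete medium. In 3 libraries the cells received OGD/R alone. In the other 3 they also received phillyrin, a lignan glucoside of Forsythia fruit, at 50 µg/mL for 8 h before OGD/R and for 16 h together with it. How those 16 h fall within the 24 h of reoxygenation is not given in the labels. Cells without OGD/R, or with a vehicle in place of phillyrin, were not analysed here, so phillyrin and its solvent cannot be told apart. All libraries come from 1 cell line. The labels do not state whether the 3 libraries of a group were separate cultures, so the spread behind the p-values below may be technical.

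Proliferins are secreted glycoproteins of the prolactin and growth hormone family. In the mouse they are best known from the trophoblast giant cells of the placenta, where they act on blood vessel growth, and they were first found as transcripts that serum induces in growing fibroblast lines. Secreted proliferin binds the cation-independent mannose 6-phosphate receptor, Igf2r, its gene is a known target of the transcription factor AP-1, and in cultured myoblasts it holds back muscle differentiation. Protein, secretion and receptor binding were not measured here.

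The sequences show how far reads can tell the copies apart. In the GENCODE M21 transcripts (build GRCm38) the coding sequences of Prl2c2 and Prl2c3 were both 675 bases long, stop codon included, spread over transcripts of 5 exons, and matched at 672 bases (99.56%). The 3 differences, counted from 1 at the A of the start codon with the Prl2c2 base first, were T14C, C200A and T319G. Prl2c5, a further copy, had 669 coding bases and matched Prl2c2 at 96.15% and Prl2c3 at 96% of aligned positions. Prl2c1, the most distant copy in the table, matched them at 92.43% and 92.29%. The stretches around the 3 differences are shown because they are the coding positions at which a read can be given to Prl2c2 or Prl2c3. Capitals mark every position of a stretch at which the 3 copies are not all the same.
Prl2c2, coding bases 1 to 41: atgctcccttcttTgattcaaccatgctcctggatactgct
Prl2c3, coding bases 1 to 41: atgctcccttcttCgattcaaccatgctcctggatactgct
Prl2c5, coding bases 1 to 41: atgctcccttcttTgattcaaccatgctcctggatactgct
Prl2c2, coding bases 180 to 220: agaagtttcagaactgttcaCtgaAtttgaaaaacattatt
Prl2c3, coding bases 180 to 220: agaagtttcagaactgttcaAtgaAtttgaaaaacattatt
Prl2c5, coding bases 180 to 220: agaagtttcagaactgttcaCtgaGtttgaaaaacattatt
Prl2c2, coding bases 299 to 339: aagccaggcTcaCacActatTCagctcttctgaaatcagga
Prl2c3, coding bases 299 to 339: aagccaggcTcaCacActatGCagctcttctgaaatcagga
Prl2c5, coding bases 299 to 339: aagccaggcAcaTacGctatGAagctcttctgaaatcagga
The capitals of the first stretch separate Prl2c3 from both other copies, and those of the last separate Prl2c5 at several positions. Of the stretches of 150 bases, the read length, in the Prl2c2 transcript, 340 of 693 (49.1%) occurred in no transcript of another gene of the annotation. For Prl2c3 the count was 355 of 708 (50.1%). The others were shared between the 2 copies or with the predicted gene Gm7040. In Prl2c5 all 695 stretches and in Prl2c1 all 703 were found in no transcript of another gene. How the counting treated reads that fit several genes is not given in the sources used here, so the division of counts between Prl2c2 and Prl2c3 is uncertain, and their sum is given first.

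By the coordinates of the deposited table (build GRCm39) the copies lie on chromosome 13. Prl2c3 (ENSMUSG00000056457) spans chr13:12805705-12814968 and Prl2c2 (ENSMUSG00000079092) chr13:13170710-13179968, both on the minus strand and 356 kb apart. Prl2c5 (ENSMUSG00000055360) follows on the plus strand, 177 kb past Prl2c2, at chr13:13357300-13366508. Prl2c1 (ENSMUSG00000062551) lies apart from the others at chr13:28033325-28041771.

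Library totals lay between 14761317 and 22123648 counts. The 10 most abundant genes took 5.53% to 6.53% of a library. Mitochondrially encoded genes took 3.18% to 3.3% of counts in the OGD/R libraries and 3.49% to 4.27% in the phillyrin libraries, and their part in the results below was not tested. Of 11658 genes that passed the filter on low counts, edgeR's quasi-likelihood test called 3694 (31.7%) at an adjusted p under 0.05, 1871 (16%) higher and 1823 (15.6%) lower with phillyrin. Scaled by library size alone, 1313 were higher and 2455 lower. The median log2 fold change over all genes tested was -0.01.

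Proliferin transcripts were less abundant in the phillyrin libraries. The summed counts of Prl2c2 and Prl2c3 were 2147, 2704 and 2494 in OGD/R libraries 1 to 3 and 860, 1121 and 726 in phillyrin libraries 1 to 3. In counts per 1000000 counts of a library (CPM, scaled by TMM factors) the sum was 116, 130 and 131 with OGD/R and 50.3, 51.2 and 50.5 with phillyrin. Every OGD/R library lay above every phillyrin library, and the lowest of the former held 2.27 times the level of the highest of the latter. The mean of 50.7 ± 0.478 CPM with phillyrin was 2.48-fold lower than the 126 ± 8.53 CPM with OGD/R alone (SD, n = 3 each), at a log2 fold change of -1.31 (SE 0.05, 95% interval -1.42 to -1.21). The sums of the 3 phillyrin libraries lay closer together than those of the OGD/R libraries, with coefficients of variation of 0.943% and 6.78%. Counting error alone is expected to exceed 0.943% at these counts, so the closeness is not read as a steadier level. Over all genes the phillyrin libraries differed more from each other (mean chi-square per gene 3.81 to 5.37) than the OGD/R libraries did (2.04 to 2.55). In bulk RNA, fewer cells that express a gene and less of its RNA per cell cannot be told apart.

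Prl2c3, the more abundant copy, had counts of 1575, 1970 and 1781 in the OGD/R libraries and of 662, 874 and 546 in the phillyrin libraries. Its levels were 85.2, 95 and 93.7 CPM against 38.7, 39.9 and 38 CPM, with no overlap and a gap of 2.13-fold between the nearest libraries. The mean went from 91.3 ± 5.37 to 38.9 ± 0.983 CPM (SD, n = 3 each), 2.35-fold lower, at a log2 fold change of -1.23 (SE 0.06, 95% interval -1.34 to -1.12). Phillyrin libraries therefore held 42.6% of the OGD/R level of Prl2c3.

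Prl2c2 had counts of 572, 734 and 713 in the OGD/R libraries and of 198, 247 and 180 in the phillyrin libraries. This corresponds to 30.9, 35.4 and 37.5 CPM against 11.6, 11.3 and 12.5 CPM. The groups did not overlap here either, with 2.47-fold between the nearest libraries. The mean went from 34.6 ± 3.37 to 11.8 ± 0.646 CPM (SD, n = 3 each), 2.93-fold lower and 34.1% of the OGD/R level, at a log2 fold change of -1.56 (SE 0.09, 95% interval -1.74 to -1.38). Prl2c2 and Prl2c3 are both among the 1823 genes (15.6% of those tested) called lower, among the 5027 (43.1%) whose groups did not overlap, of which 2521 (21.6%) were lower, and among the 86 (0.738%) called at least 2-fold lower. Since they were selected on this contrast, nothing further is read from these shares.

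**Figure D1:**
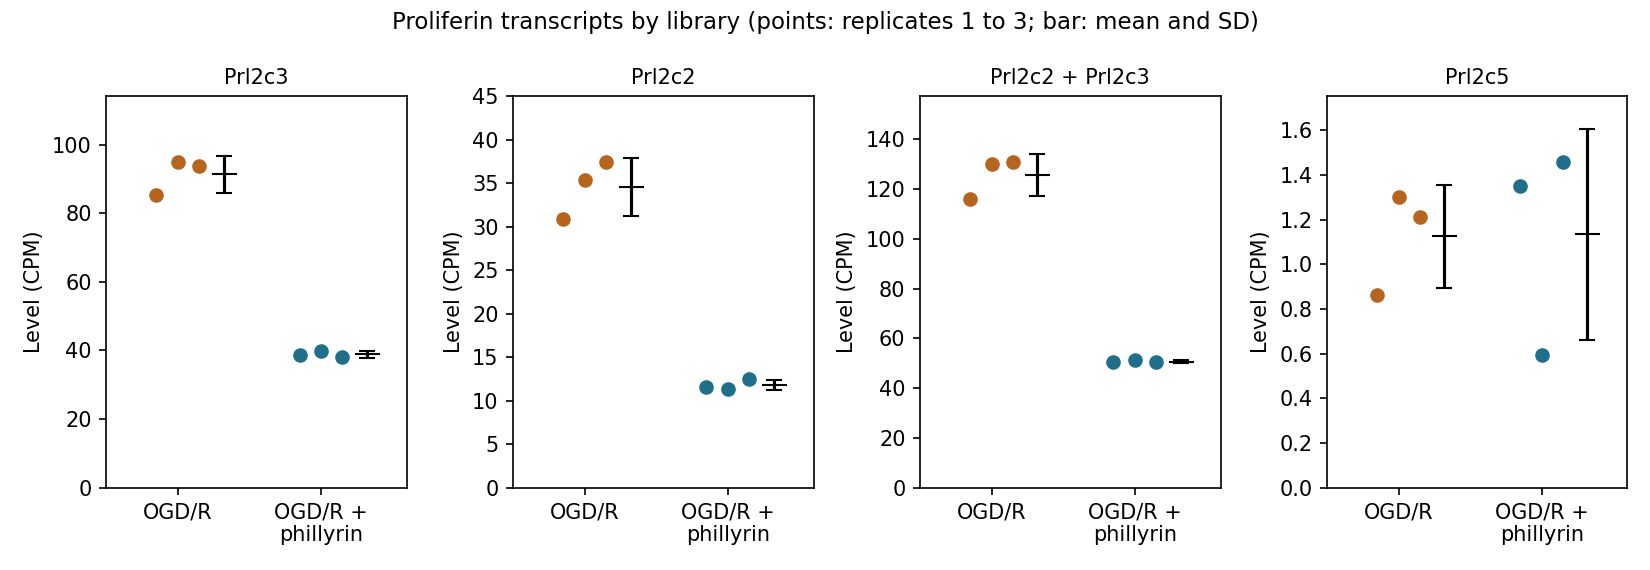
Levels of Prl2c3, Prl2c2, their sum and Prl2c5 in CPM (linear axes from 0) in the 3 OGD/R and 3 phillyrin libraries; points are libraries and bars the mean and SD. The sum sits at 116 to 131 CPM with OGD/R and at 50.3 to 51.2 CPM with phillyrin, while the Prl2c5 points of the groups overlap near 1 CPM.

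Per length, Prl2c3 was the more abundant copy in all 6 libraries. Its deposited FPKM values were 63.7, 70.9 and 69.8 with OGD/R and 28.2, 29 and 27.2 with phillyrin. Those of Prl2c2 were 28.9, 33 and 34.9 with OGD/R and 10.5, 10.2 and 11.2 with phillyrin. Ordered by mean FPKM among the 11658 genes tested, Prl2c3 stood at place 602 (the top 5.16%) with OGD/R and at 1794 (15.4%) with phillyrin. Prl2c2 went from place 1504 (12.9%) to 4462 (38.3%). Both proliferin genes thus stood among the more abundant transcripts of the OGD/R libraries.

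The copies also differed slightly in how they divided their joint counts. Prl2c3 took 73.4% (exact binomial 95% interval 71.4 to 75.2), 72.9% (71.1 to 74.5) and 71.4% (69.6 to 73.2) of the counts of both copies in OGD/R libraries 1 to 3. In phillyrin libraries 1 to 3 it took 77% (74 to 79.8), 78% (75.4 to 80.4) and 75.2% (71.9 to 78.3). The library values did not overlap between groups, although the interval of phillyrin library 3 overlapped those of all OGD/R libraries and that of phillyrin library 1 those of OGD/R libraries 1 and 2. The mean share was 72.5 ± 1.01% with OGD/R and 76.7 ± 1.4% with phillyrin (SD, n = 3 each), 4.17 percentage points apart. By FPKM, which allows for the lengths of 1360 bases for Prl2c3 and 1090 bases for Prl2c2 in the table, the share was 67.9 ± 1.1% and 72.5 ± 1.56%, or 4.61 points apart. These intervals cover counting error only, and they do not cover reads that fit both copies. The shares restate that Prl2c2 fell further than Prl2c3. Both were picked for this contrast, so the shift in share is a description.

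**Figure D2:**
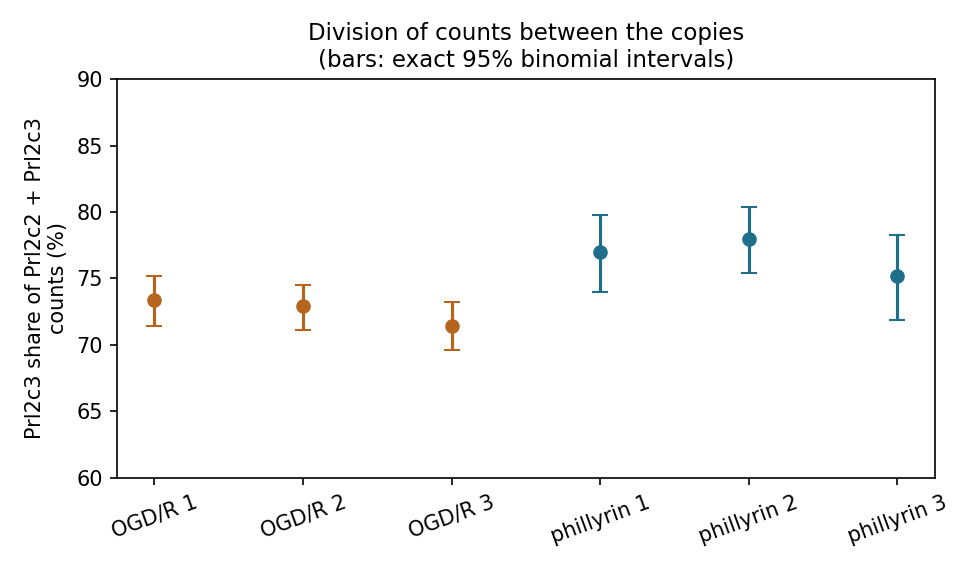
Share of Prl2c3 in the counts of Prl2c2 and Prl2c3 (percent, axis from 60 to 90) in each of the 6 libraries, with exact 95% binomial intervals. Shares lie at 71.4% to 73.4% with OGD/R and at 75.2% to 78% with phillyrin, and the intervals of phillyrin libraries 1 and 3 overlap intervals of OGD/R libraries.

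Prl2c5 was present at a low level in every library, with overlapping groups. Its counts were 16, 27 and 23 with OGD/R and 23, 13 and 21 with phillyrin, or 0.865, 1.3 and 1.21 CPM against 1.35, 0.594 and 1.46 CPM, and the groups overlapped. The mean was 1.13 ± 0.231 CPM in the OGD/R and 1.13 ± 0.471 CPM in the phillyrin libraries (SD, n = 3 each). On the log2 scale the difference was -0.06 (95% interval -0.76 to 0.65, edgeR adjusted p = 0.92). Without OGD/R library 2 it was 0.07, and without phillyrin library 2 it was 0.31. This interval does not reach the values of Prl2c2 or Prl2c3, but those were picked for this contrast. The difference between the copies was not tested. As a share of the counts of these 3 copies, Prl2c5 took 0.74%, 0.989% and 0.914% with OGD/R and 2.6%, 1.15% and 2.81% with phillyrin. With Prl2c5 at a mean of 1.13 CPM in both groups, this share follows from the lower counts of Prl2c2 and Prl2c3. The exact binomial 95% interval of phillyrin library 2 (0.612% to 1.95%) overlapped those of the OGD/R libraries. Prl2c1 had no count in any library, which allows a level of up to 0.0269 CPM over all 6 libraries. The copies Prl2c4 and Prl2c-ps1 were not analysed here.

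No other gene of the family was expressed at a level that could be compared. Of 23 further prolactin and growth hormone family genes, which include Prl itself and the placental lactogens, 18 had no count in any library. The other 5 had 14 counts together, with at most 3 in a library. Placental lactogen Prl3d1, a hormone of early trophoblast giant cells, was at 0 counts in all libraries. Of the family genes examined, Prl2c2, Prl2c3 and Prl2c5 passed the filter on low counts. Of 19 trophoblast giant cell and placental markers, 0 passed the filter on low counts, 14 had no count in any library, and their summed level was 0.627 to 0.973 CPM with OGD/R and 0.626 to 0.819 CPM with phillyrin. Hand1, the transcription factor required for giant cells, was at 0 counts.

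The promoters of Prl2c3 and Prl2c5 are shown because the first copy was abundant and lower with phillyrin while the second stood near 1 CPM in both groups. Both are the 250 bases before the transcription start by RefSeq (build GRCm38.p6), and of 32851 promoter windows in that table no entry was matched for Prl2c2. Capitals mark bases that differ or have no counterpart in the other promoter.
Prl2c3, chr13:12800080-12800329, minus strand: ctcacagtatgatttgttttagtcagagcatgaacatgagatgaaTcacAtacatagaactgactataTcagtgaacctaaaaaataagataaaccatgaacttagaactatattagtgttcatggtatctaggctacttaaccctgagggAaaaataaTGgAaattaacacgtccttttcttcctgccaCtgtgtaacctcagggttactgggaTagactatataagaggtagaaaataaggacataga
Prl2c5, chr13:13182466-13182715, plus strand: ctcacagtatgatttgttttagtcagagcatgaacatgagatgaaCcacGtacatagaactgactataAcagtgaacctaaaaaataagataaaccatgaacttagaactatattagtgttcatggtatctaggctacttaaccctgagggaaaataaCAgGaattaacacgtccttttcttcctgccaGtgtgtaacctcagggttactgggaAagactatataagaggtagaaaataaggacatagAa
They matched at 241 bases (96.02% of aligned positions), with 8 substitutions and 2 gap positions. Windows of 300 bases, from 250 before to 50 after the start, were searched on both strands for the AP-1 motif TGANTCA, the cAMP response element TGACGTCA, the E-box CANNTG and the TATA motif TATAAA. These occurred in 7.81%, 1.79%, 72.3% and 13.6% of all windows. Neither window held TGACGTCA, CANNTG or the exact letters TATAAA. Both promoters hold tatataag near the start, which those letters do not match, so the lack of a TATA box is not read from this search. The Prl2c3 window held 1 match to the AP-1 pattern, TGAATCA, 209 bases before the start. The search left the middle base open, so this is a match to a loose form of the motif. Prl2c5 has TGAACCA at that place, which is not a match, through the substitution T46C (Prl2c3 base first, counted from 1 at the far end of the 250 bases). Both promoters also hold ttagtca, which differs from the pattern at 1 base and was not counted. The lack of an AP-1 site in Prl2c5 is therefore not read from this search. A match describes letters only, and binding was not measured.

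AP-1 subunit genes were set beside the proliferins. Of 12 genes on the list, 9 were tested, of which edgeR called 1 higher and 3 lower, with a median log2 fold change of -0.22 against -0.01 for all genes. Over all genes tested, 16% were called higher and 15.6% lower. Jun, a central AP-1 subunit, was at 130 ± 2.51 CPM with OGD/R and fell to 111 ± 4.89 CPM with phillyrin (SD, n = 3 each), or by 0.23 on the log2 scale (edgeR adjusted p = 7.45e-05). Its Fos family partner Fosl1 fell from 32.5 ± 1.73 to 26.5 ± 2.97 CPM (edgeR adjusted p = 0.0042), a call lost without phillyrin library 1 (edgeR adjusted p = 0.0601). The stress-induced Atf3 fell by 0.24 on the log2 scale. Fosl2 rose from 146 ± 1.74 to 165 ± 4.3 CPM (edgeR adjusted p = 0.000657). Fos itself, an immediate early gene, was low, at 1.31 CPM with OGD/R and 1.11 CPM with phillyrin (edgeR adjusted p = 0.668, log2 fold change -0.22). Jdp2, a repressor among AP-1 proteins, had a log2 fold change of 0.11 (edgeR adjusted p = 0.0575). It passed the threshold without OGD/R library 1 (edgeR adjusted p = 0.0426) or phillyrin library 1 (edgeR adjusted p = 0.0245), which made the list's count of higher genes 2. All of these differences were smaller in size than the log2 fold changes of Prl2c2 (-1.56) and Prl2c3 (-1.23), which were picked for this contrast.

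Receptors for proliferin and prolactin and their signalling genes were measured in the same libraries. Igf2r, the receptor that binds proliferin, stood at 28.3 ± 1.93 CPM with OGD/R and at 26.2 ± 2.3 CPM with phillyrin (SD, n = 3 each). The difference of -0.10 on the log2 scale did not pass the test (edgeR adjusted p = 0.35). The prolactin receptor Prlr had 1 count in all 6 libraries together. Of 19 genes on the list 17 were tested, of which 3 were higher, 2 lower and 12 not called, with a median log2 fold change of -0.04. This share is near the 31.7% called over all genes and is no result about these genes as a group. Socs2, a feedback inhibitor of cytokine receptor signalling, rose from 112 ± 3.17 to 160 ± 3.48 CPM (log2 fold change 0.51, edgeR adjusted p = 3.03e-12), and the transcription factor Stat3 from 89.5 ± 1.07 to 108 ± 6.28 CPM (edgeR adjusted p = 3.6e-05). Stat5a, which acts after the prolactin receptor, fell by 0.39 on the log2 scale (SE 0.11, edgeR adjusted p = 0.00462). The kinase gene Tyk2 fell by 0.32 (edgeR adjusted p = 0.00452), a call lost without phillyrin library 2 (edgeR adjusted p = 0.0733), so that the count of lower genes went to 1. M6pr, the cation-dependent mannose 6-phosphate receptor, rose from 132 ± 4.92 to 144 ± 5.33 CPM (edgeR adjusted p = 0.0262). That call was lost without OGD/R library 1 or 2 or phillyrin library 1 or 3, at edgeR adjusted p = 0.0935, 0.154, 0.054 and 0.0531.

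Other secreted factors that act on blood vessels moved in both directions while the proliferins were lower. Among 24 tested angiogenic and endothelial growth factors 8 rose, 1 fell and 15 were not called (median log2 fold change 0.06), where 16% of all genes tested rose and 15.6% fell. Ccn2, a matricellular growth factor, rose from 86.7 ± 2.99 to 145 ± 6.74 CPM (edgeR adjusted p = 1.74e-15, a rise of 0.74 on the log2 scale). Fgf2, which promotes endothelial growth, rose from 14.6 ± 0.996 to 23.4 ± 2.08 CPM (edgeR adjusted p = 2.7e-07). Vegfa, the main endothelial growth factor, rose from 492 ± 8.21 to 565 ± 11.2 CPM (edgeR adjusted p = 1.05e-05). Angptl2 and Pdgfc rose by 0.36 and 0.37 on the log2 scale. The gene that fell was Fgf5 (log2 fold change -0.40, edgeR adjusted p = 0.00896), a call that was lost without OGD/R library 1 or phillyrin library 2 (edgeR adjusted p = 0.0604 and 0.0566), where 0 genes of the list fell. Without OGD/R library 3 or phillyrin library 1, 2 genes fell. The 12 tested antiangiogenic factors held 2 that rose and 5 that fell (median log2 fold change -0.12), beside the same 16% and 15.6% over all genes. Thrombospondin Thbs1 fell from 485 ± 8.31 to 367 ± 10.6 CPM (edgeR adjusted p = 9.13e-12) and the semaphorin Sema3a from 142 ± 6.92 to 100 ± 4.35 CPM (edgeR adjusted p = 4.83e-11), while the metalloproteinase inhibitor Timp3 rose from 640 ± 9.82 to 923 ± 19 CPM (edgeR adjusted p = 1.62e-15). Timp2, Sema3b and Adamts1 also fell, and Thbs2 also rose. The Adamts1 call (edgeR adjusted p = 0.0382) was lost without any 1 library other than phillyrin library 1, at edgeR adjusted p = 0.0501 to 0.19. Of the secreted factors on these lists, none that edgeR called fell as far as Prl2c3, which was picked for its difference.

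**Figure D3:**
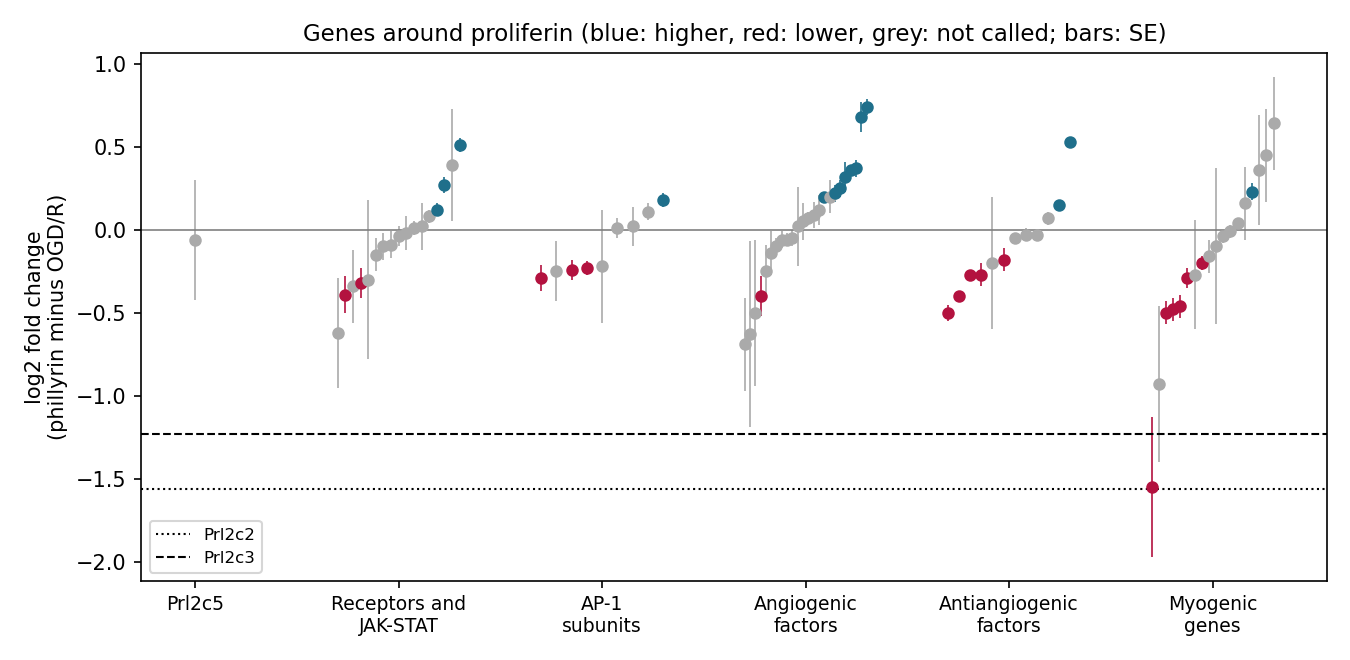
Log2 fold changes (phillyrin minus OGD/R, vertical axis) with SE bars for Prl2c5 and for the tested genes of 5 lists, each ordered by value; blue genes were called higher, red lower and grey not called by edgeR, and horizontal lines mark Prl2c2 (-1.56) and Prl2c3 (-1.23). Mymk, at -1.55, lies between the lines, but at -2.23 to -1.11 with single libraries left out.

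Since proliferin is known from myoblast cultures, skeletal myogenic genes were set beside it. Of 31 genes on the list 18 were tested, of which 1 rose, 6 fell and 11 were not called (median log2 fold change -0.13). Over all genes tested 16% rose and 15.6% fell. The myogenic regulator Myod1 rose from 83.2 ± 2.18 to 97.2 ± 4.09 CPM (edgeR adjusted p = 0.000455), whereas Myf5, which marks myoblasts, fell from 64.2 ± 3.65 to 52.5 ± 2.76 CPM (edgeR adjusted p = 0.000197). Myog, which marks the start of differentiation, had counts of 7, 2 and 11 with OGD/R and of 14, 11 and 0 with phillyrin, too few to be tested. The inhibitors of myogenic factors Id1, Id2 and Id3 fell together. Id3 went from 42.9 ± 0.955 to 30.8 ± 0.379 CPM (log2 fold change -0.48, edgeR adjusted p = 4.02e-07), and Id1 and Id2 had log2 fold changes of -0.46 and -0.50. Mef2d and the fusion gene Mymk fell too, the latter from a low level of 1.38 CPM to 0.445 CPM (edgeR adjusted p = 0.00393, log2 fold change -1.55). The Mymk value rested on few counts, and it was -2.23 without phillyrin library 2 and -1.11 without phillyrin library 1. Without OGD/R library 1 or phillyrin library 3 the count of higher genes was 2.

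Markers of the labelled cell type and of others that proliferin could come from were measured too. Of 20 atrial cardiomyocyte markers 13 stayed under 0.5 CPM in every library, and the defining Myh6 and Nppa had 0 and 2 counts in all, so the atrial identity named in the labels was not seen in these defining genes. The summed level of the 20 was 430 to 448 CPM with OGD/R and 549 to 562 CPM with phillyrin, carried by Tnnt2 and Gja1, which are not confined to atrial cells. The cardiac factor Gata4 was at 30.8 CPM with OGD/R and 28.3 CPM with phillyrin. The skeletal myogenic regulators Myod1 and Myf5 were also expressed, at 83.2 and 64.2 CPM with OGD/R. What kind of cell these markers describe was not tested. Of 10 fibroblast markers, 6 were tested, 1 rose (Postn) and 3 fell (Col1a2, Col3a1 and Pdgfra), where 16% of all genes tested rose and 15.6% fell. Their summed level was 2285 to 2325 CPM with OGD/R and 1808 to 1960 CPM with phillyrin. It was carried by the collagen genes Col3a1, Col1a2 and Col1a1, at 1394, 623 and 254 CPM with OGD/R. Lum and Tcf21 were at 0, and Thy1 and Fap had 2 and 13 counts in all. Of 10 endothelial markers 5 had no count and the sum was 10 to 10.5 against 6.82 to 7.58 CPM, mostly Flt1. Of 8 macrophage markers 3 had no count and the sum was 20.3 to 21.6 against 18.4 to 20.3 CPM. The fibroblast and endothelial sums were lower with phillyrin, as the proliferins were, but the former mostly reads collagen genes and the latter Flt1. Their part in the proliferin result was not tested.

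Genes beside Prl2c2 and Prl2c3 on chromosome 13 had smaller fold changes. Within 1 Mb of either copy the table held 14 other genes, of which 10 were tested, 2 were higher, 2 lower and 6 not called, beside 31.7% called over all genes. Their log2 fold changes ran from -0.22 to 0.32. The nearest tested genes were Prl2c5, 177 kb from Prl2c2, and Ero1b, an oxidoreductase of the endoplasmic reticulum, 179 kb from Prl2c3. Ero1b stood at 23.1 ± 1.47 CPM with OGD/R and at 25.1 ± 2.86 CPM with phillyrin (edgeR adjusted p = 0.284, log2 fold change 0.12). The 2 lower genes were Nid1, a basement membrane protein gene (log2 fold change -0.22, edgeR adjusted p = 1.74e-06), and Lgals8 (-0.16, edgeR adjusted p = 0.0185). The Lgals8 call was lost without OGD/R library 2 or 3 or phillyrin library 2, at edgeR adjusted p = 0.0899, 0.0818 and 0.0987. The higher genes were B3galnt2 at 0.32 and Heatr1 at 0.19. Neighbouring genes therefore lay within 0.32 of 0 on the log2 scale, beside -1.23 and -1.56 for Prl2c3 and Prl2c2. Those 2 copies were picked for this contrast and the neighbours were not, so the gap is a description.

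**Figure D4:**
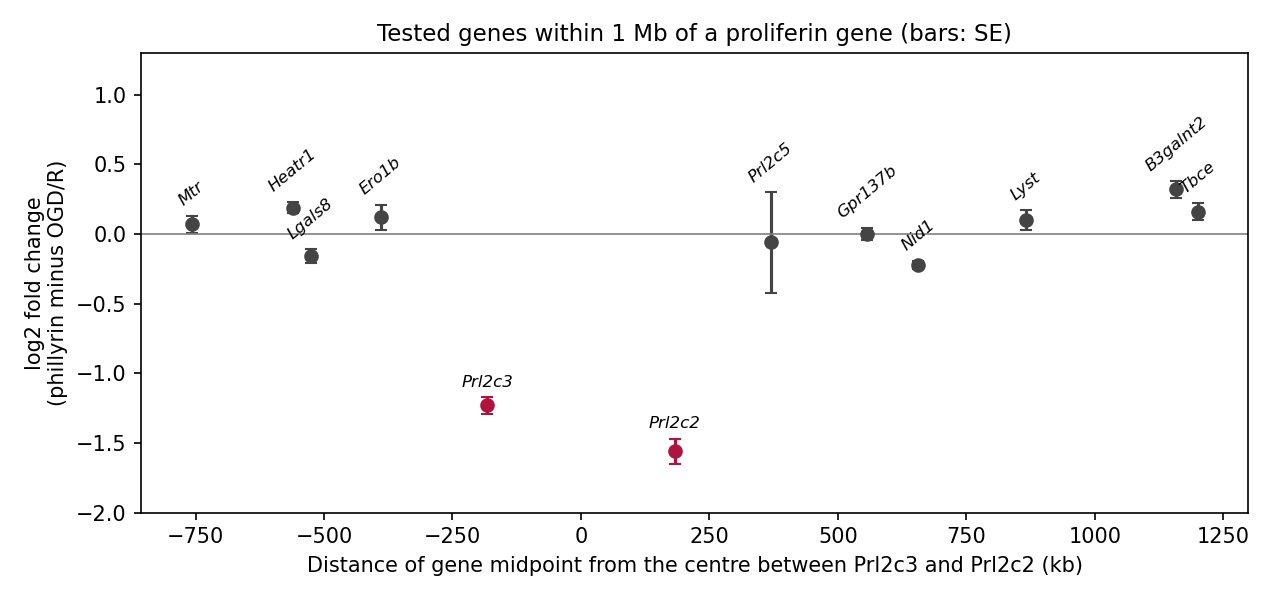
Log2 fold change (phillyrin minus OGD/R) of each tested gene within 1 Mb of Prl2c3 or Prl2c2, plotted by the distance of its midpoint from the centre between the copies in kb, with bars of 1 SE. Prl2c3 and Prl2c2, in red, lie at -1.23 and -1.56, and the other genes between -0.22 and 0.32.

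Ordered by log2 fold change from the lowest, Prl2c2 was at place 15 and Prl2c3 at place 50 of 11658 genes tested. Most genes around them in that order were of low abundance. Of the 10 genes next to Prl2c2, with log2 fold changes of -1.66 to -1.47, 9 had a mean under 10 CPM, the exception being the receptor gene Epha4 at 26.9 CPM (log2 fold change -1.54). All 10 next to Prl2c3 were under 10 CPM, with Tslp highest at 7.81 CPM. Among the 9923 genes that averaged 2 log2 CPM or more, Prl2c2 stood at place 1 and Prl2c3 at place 12. As both were picked for this contrast, their places are a description and no evidence that they stand out.

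The library pattern of the summed proliferins was compared with that of the 362 such genes with a log2 fold change of 0.5 or more in size, by Pearson correlation of log2 CPM over the 6 libraries. The libraries form 2 groups, so this measure mostly reads the difference between groups, and 117 genes were over 0.95. The nearest were Msmo1, a gene of cholesterol synthesis (0.9987), Nptx1, a neuronal pentraxin (0.9977), the neurofilament gene Nefm (0.9974) and Osbp2 (0.9973). They were followed by the DNA ligase gene Lig1 (0.9968), Etl4 (0.9968), Tcf19 (0.9964) and the enolase gene Eno3 (0.9957). Msmo1 stood at 71.5 ± 1.82 and 43.9 ± 0.57 CPM with OGD/R and phillyrin, and Nptx1 at 49.4 ± 0.807 and 27 ± 0.356 CPM. By rank only Osbp2 of the 8 ordered all 6 libraries as the proliferins did, with a Spearman correlation of 1.00. All 8 had smaller log2 fold changes than either proliferin copy, from -0.87 for Nptx1 to -0.56 for Etl4. Because the copies were picked for their difference, nothing is read from that gap in size.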

How the data were processed

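Libraries were made from poly(A) RNA and read from both ends over 150 bases, per the labels' protocols. The submitters' processing notes list DESeq2 1.34.0, featureCounts 2.0.3, HISAT2 2.2.1, Trimmomatic 0.39 and build GRCm39, without roles. How reads that fit several genes were counted, and on which strand, is not given in the sources used here. The deposited table gives read counts per gene and library, and FPKM values, per the file headers. The FPKM values deposited by the authors equalled count over length and library total within a relative 2.43e-07. Columns were assigned by sample title, since the description repeats 1 column name across the 3 phillyrin libraries.

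Counts were filtered with filterByExpr, scaled by TMM and tested with edgeR's robust quasi-likelihood test (edgeR 4.0.16, limma 3.58.1, R 4.3.3), two-sided, with Benjamini-Hochberg adjustment over 11658 genes and a threshold of 0.05. For log2 CPM the prior count was 2. Intervals of 95% for log2 fold changes were taken from the SE by the normal approximation. The sum of Prl2c2 and Prl2c3 replaced both copies in a separate fit. The 51 rows without a symbol had identifiers, stayed in, and took at most 0.00743% of counts. A count of 0 is given an upper limit of 3 counts. Binomial intervals and limits cover counting error only, since PCR copies are not independent molecules. Library pairs of a group differed by more than sampling noise.

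The members and lists were chosen with earlier results of these data known. The naming rule took the Prl2c genes, up to 5 genes per list by smallest p, 12 set genes (Prlr, Igf2r, Jun, Fos, Fosl1, Vegfa, Myod1, Myog, Hand1, Prl3d1, Myh6 and Nppa), the 8 genes most correlated with the sum, the 5 genes on each side in fold-change order and the nearest tested neighbours. Fgf5, Sema3b, Adamts1, Mef2d, Nid1, Lgals8, B3galnt2, Heatr1, Lum, Tcf21, Thy1 and Fap were named after their values were seen. Alternatives were limma-voom, DESeq2 1.42.0, scaling by RLE or by library size alone, no filter, a minimum mean of 1 CPM, each library left out, a replicate block, all Prl2c copies summed, shares by FPKM and Spearman correlation. Coding sequences were compared in place of proteins, a choice made after the references were seen. Transcripts and promoters come from GRCm38 and were not mixed with GRCm39 coordinates.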

Additional observations from a re-analysis of the deposited data

How the results depend on the processing

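The log2 fold change of the summed proliferins lay between -1.37 and -1.28 with each library left out, and Prl2c2 and Prl2c3 lay at -1.63 to -1.50 and -1.28 to -1.20. With all Prl2c copies summed it was -1.29, and scaled by library size alone -1.36. By FPKM the Prl2c3 share was 67.9% with OGD/R and 72.5% with phillyrin. AP-1 subunits called higher numbered 2 with RLE factors and with no low-count filter, and angiogenic factors called lower 3 with library size alone, 2 with no low-count filter and 2 with the replicate block. With each library left out, receptor and signalling genes called lower numbered 1 to 2, AP-1 subunits called higher 1 to 2, angiogenic factors called lower 0 to 2 and myogenic genes called higher 1 to 2. By Spearman correlation, 2 of the 8 most similar genes remained among its top 8 with ties. The sign changed for Prl2c5 without OGD/R library 2 (0.07) or phillyrin library 2 (0.31), with a range of -0.27 to 0.31 over the libraries left out, and for Nppb without OGD/R library 1 (0.06), with a range of -0.27 to 0.06. Of 804 values for 62 named genes under alternatives, 775 kept their direction and side of the threshold. M6pr lost its call with library size alone (edgeR adjusted p = 0.15) and Adamts1 with DESeq2 (adjusted p = 0.0808). The cause of these shifts was not tested.

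Libraries with the same replicate number hardly deviated together from their group means (correlations of -0.00297, -0.00139 and 0.0414 over 9923 genes). The value of 0.0414, for the libraries numbered 3, was the highest of all pairs. It was followed by 0.0363 for OGD/R library 1 with phillyrin library 2. The numbers are not read as pairs. With the replicate block, 1867 genes were called higher and 1842 lower, and the summed proliferins had a log2 fold change of -1.31. The planned protein comparison was not run. At these depths a log2 fold change of Prl2c5 anywhere from -0.76 to 0.65 is within its 95% interval.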
